A study of Mus musculus with 7 samples.

Results

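Carboxylesterases are serine hydrolases of the endoplasmic reticulum that cleave ester, thioester and amide bonds in drugs and in endogenous lipids such as triacylglycerol and cholesteryl esters. The mouse genome holds many more of these genes than the human genome, laid out as tandem copies, and liver is the organ best known for the enzymes. Some family members act as lipases in hepatocytes and adipocytes, others are secreted into blood plasma, and the substrates of several are not well known. The genes described here were chosen by name from the deposited table, namely Ces1b, Ces1c, Ces1d, Ces1e, Ces1f, Ces1g, Ces2a, Ces2c, Ces2e and Ces3a. These 10 are among 50226 gene names and 21340 protein-coding names in that table, and a value was found for all 10.

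RNA without rRNA was sequenced, with strand kept, from liver, kidney, cortex, skeletal muscle and 3 fat depots, namely visceral (VAT), subcutaneous (SCAT) and interscapular brown adipose tissue (BAT). The mice were wild types (genotype "wt"), with the strain given as C57BL/6 in the labels and as C57BL/6N in the study's methods, on the diet labelled NCD, aged 36 weeks, and all 7 tissues share strain, genotype, diet and age. Each tissue has 1 library, so no difference has a replicate check, no test was run, and neighbours in an order of levels cannot be separated by their spread. Levels are FPKM, fragment numbers scaled for transcript length and library size, which can be set side by side between genes. Fragment counts are not part of the table, and the depth of a library is therefore unknown. The labels do not say how many animals went into a library.

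All 10 genes lie on mouse chromosome 8 in 2 tandem clusters (GRCm38). Ces1b to Ces1g sit on the minus strand, from Ces1b at chr8:93056728-93080017 to Ces1g at chr8:93302369-93337308. Ces2a, Ces2c, Ces2e and Ces3a sit on the plus strand, from Ces2a at chr8:104734003-104741634 to Ces3a at chr8:105048601-105058413. Coding sequences of the 15 Ces1 pairs were 74.5 to 91.1% identical, those of the 3 Ces2 pairs 83.0 to 84.0%, and those of the 27 pairs from different subfamilies 62.3 to 67.4%. Ces1b and Ces1c form the closest pair at 91.1%. In spite of this, few stretches of read length were shared. A small share can still matter for a gene whose relative has a far higher level. The share of 101-base windows in a coding sequence that recurred in any other carboxylesterase transcript was 18.2% for Ces2c and 9.67% for Ces3a. It was 1.41% for Ces1c, 1.37% for Ces1b and 0% for the other 6 genes. The transcript that shared most was that of the pseudogene Ces2d-ps for Ces2c, Ces3b for Ces3a, Ces1b for Ces1c and Ces1c for Ces1b.

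The upstream sequences show how recent copies resemble each other and are printed for 1 pair with the same tissue (Ces1b and Ces1c, liver) and 1 pair with different tissues (Ces2a, liver, and Ces2c, kidney). The part of Ces1c reads in the liver level of Ces1b was not tested. The kidney level of Ces2c is that of a locus merged with Ces2b, so the tissue of Ces2c alone is not known. Each is the 250 bases before a transcription start in RefSeq (GRCm38.p6), 5′ to 3′ on the gene's strand, and capitals mark the longest run that the 2 members of a pair share. Positions are chr8:93080018-93080267 (minus strand) for Ces1b, chr8:93131284-93131533 (minus strand) for Ces1c, chr8:104733753-104734002 (plus strand) for Ces2a and chr8:104846818-104847067 (plus strand) for Ces2c.
Ces1b: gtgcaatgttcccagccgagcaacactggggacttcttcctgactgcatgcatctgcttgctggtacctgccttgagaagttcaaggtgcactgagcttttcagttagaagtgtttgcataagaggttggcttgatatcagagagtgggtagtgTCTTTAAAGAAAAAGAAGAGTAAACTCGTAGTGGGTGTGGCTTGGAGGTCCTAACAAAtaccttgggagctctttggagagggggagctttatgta
Ces1c: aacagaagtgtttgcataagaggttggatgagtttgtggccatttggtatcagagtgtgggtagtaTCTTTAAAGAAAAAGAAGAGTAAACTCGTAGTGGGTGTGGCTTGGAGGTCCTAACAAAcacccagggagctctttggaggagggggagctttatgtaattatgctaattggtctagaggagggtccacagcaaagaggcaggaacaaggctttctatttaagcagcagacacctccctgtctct
Ces2a: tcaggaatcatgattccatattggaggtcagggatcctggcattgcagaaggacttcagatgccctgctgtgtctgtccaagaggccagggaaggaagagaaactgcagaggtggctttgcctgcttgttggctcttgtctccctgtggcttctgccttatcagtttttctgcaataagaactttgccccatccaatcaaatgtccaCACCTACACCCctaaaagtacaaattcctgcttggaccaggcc
Ces2c: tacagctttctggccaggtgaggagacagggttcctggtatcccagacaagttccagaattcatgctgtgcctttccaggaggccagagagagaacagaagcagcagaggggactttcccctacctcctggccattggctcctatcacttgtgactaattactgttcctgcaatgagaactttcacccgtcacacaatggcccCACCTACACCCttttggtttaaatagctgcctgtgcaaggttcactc
The shared run was 58 bases in Ces1b and Ces1c and 11 bases in Ces2a and Ces2c. RefSeq lists 2 starts for Ces1b, and with the downstream start, which is not printed, 211 of 277 aligned columns (76.2%) were identical to Ces1c. For Ces2a and Ces2c 166 of 257 columns (64.6%) were identical.

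Motifs were searched by exact letters on both strands in the same 250 bases of the 7 genes that the promoter table holds (Ces1b, Ces1c, Ces1e, Ces1g, Ces2a, Ces2c and Ces2e). CCAAT occurred in Ces1b (downstream start), Ces1c, Ces1g, Ces2a and Ces2c, and in 33.8% of 32851 mouse promoters. CAAAG occurred in each of the 7 genes apart from Ces2c, and in 48.6% of the promoters. TATAAA was found in Ces1g alone (12.4% of the promoters). No match was found in the 7 genes for the C/EBP palindrome TTGCGCAA (0.164%), for TGACNNNGC (10.2%), or for the DR1 repeat (0.0335%) and the HNF1 palindrome (0.00913%) spelled without ambiguity. These are matches of letters and not binding sites.

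The tissue markers fell mostly where the labels put them. Of 10 hepatocyte markers, 9 were enriched in liver, which means at least 1 FPKM there and a level at least 4-fold above each other tissue, and the tenth, Alb, has no usable liver value. All 8 proximal tubule markers and 6 of 6 markers of other nephron segments were enriched in kidney, 6 of 6 neuron and glia markers in cortex, 2 of 5 brown adipocyte markers in BAT (Ucp1 and Cidea) and 3 of 5 muscle fibre markers in muscle, where the other 2 (Ckm and Myh4) have a missing value in a library. Of 6 adipocyte markers 5 had their 3 highest levels in the fat depots, with Plin1 enriched in BAT, while Lep had 51.6 FPKM in VAT, 26.6 in SCAT and 2.02 in BAT, below 3.65 in muscle. VAT also held 4 of 7 epididymis markers (Crisp1 at 1386 FPKM) and 2 of 4 mesothelium markers (another, Msln, was enriched in cortex), SCAT held 5 of 6 pancreatic acinar markers (Ctrb1 at 35.9 FPKM) and 5 of 6 lymphocyte markers, and BAT held the muscle gene Ckm at 166 FPKM. Of 5 macrophage and 4 endothelium markers 0 were enriched in any tissue. In whole tissue, fewer cells of a type and less RNA per cell cannot be told apart.

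All 10 genes had at least 1 FPKM in liver, 6 in kidney (Ces1d, Ces1e, Ces1f, Ces1g, Ces2c and Ces2e), 6 in VAT (Ces1c, Ces1d, Ces1e, Ces1f, Ces2e and Ces3a), and 2 in each of SCAT, BAT and muscle (Ces1d and Ces1f). None reached 1 FPKM in cortex, where Ces1d was highest with 0.619 FPKM. Among all protein-coding genes, the share at or above 1 FPKM was 49.6% in liver, 51.8% in kidney, 52.3% in VAT, 50.0% in SCAT, 50.3% in BAT, 51.0% in muscle and 52.6% in cortex. Ces1f in muscle (1.03 FPKM), Ces2e in VAT (1.12 FPKM) and Ces1g in kidney (1.18 FPKM) lay just above the limit. By the same 4-fold rule, 6 of 10 were enriched in liver (Ces1b, Ces1c, Ces1g, Ces2a, Ces2e and Ces3a), beside 3.38% of 14898 protein-coding genes. Kidney had 1 (Ces2c), beside 2.48%, and the fat depots had 0, beside 3.86%. Ces1d, Ces1e and Ces1f were enriched nowhere, each because a pair of tissues lay within 4-fold.

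**Figure D1:**
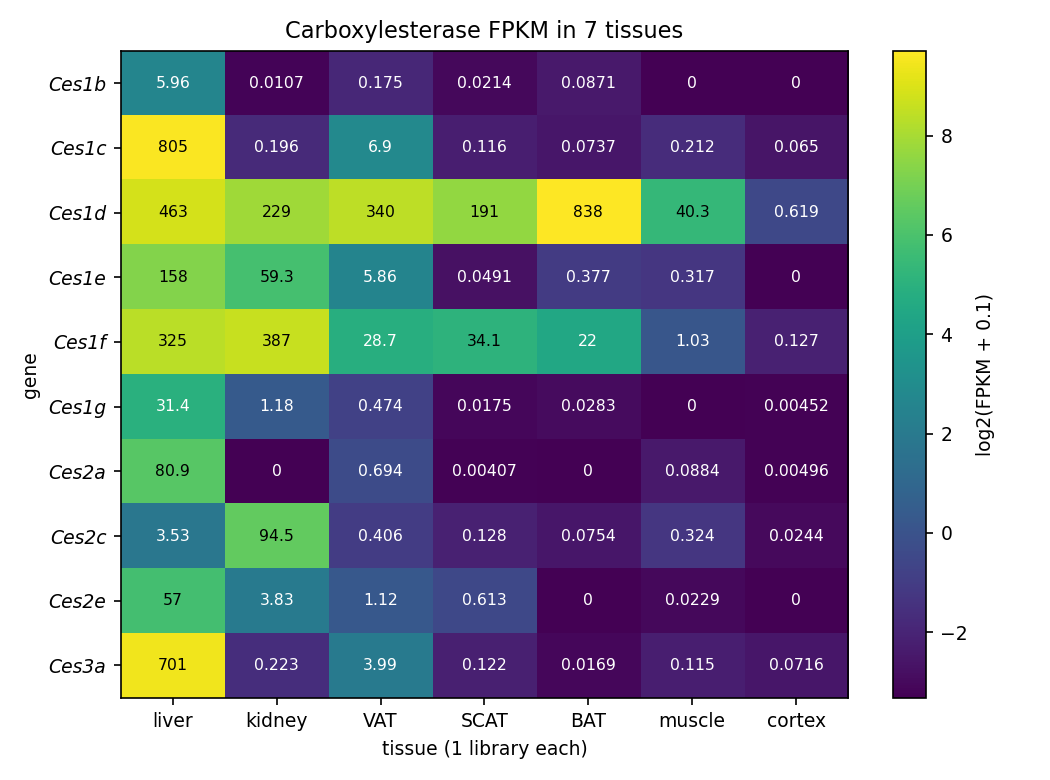
FPKM of the 10 carboxylesterase genes (rows) in the 7 libraries (columns), coloured by log2(FPKM + 0.1) with the FPKM printed in each cell. Liver is filled in all rows, Ces1d is filled in 6 columns and reaches 838 in BAT, and Ces2c stands out in kidney at 94.5.

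Ces1c, known as a plasma esterase of rodents, had the highest level of the family in liver at 804.8 FPKM, rank 62 among protein-coding genes there. It had 6.90 FPKM in VAT, 0.212 in muscle, 0.196 in kidney, 0.116 in SCAT, 0.0737 in BAT and 0.0650 in cortex. Liver thus stood alone, with a log2 margin of 6.84 over VAT, the next tissue (log2 differences are taken after adding 0.1 FPKM). Ces3a, of the Ces3 subfamily, followed at 700.9 FPKM (rank 69). Its level was 3.99 FPKM in VAT, 0.223 in kidney, 0.122 in SCAT, 0.115 in muscle, 0.0716 in cortex and 0.0169 in BAT. The margin over VAT was 7.42, the widest of the 10 genes. Ces3a and Ces1c come from different clusters, and over the 7 tissues their log2 levels had a Pearson r of 0.997 (n = 7 libraries, a description that liver dominates).

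Ces2a and Ces2e, both of the Ces2 subfamily, followed at lower liver levels. Ces2a had 80.9 FPKM in liver, 0.694 in VAT, 0.0884 in muscle, 0.00496 in cortex and 0.00407 in SCAT, and was listed at 0 in kidney and BAT. Ces2e had 57.0 FPKM in liver, 3.83 in kidney, 1.12 in VAT, 0.613 in SCAT and 0.0229 in muscle, and was listed at 0 in BAT and cortex. The margin was 6.67 over VAT for Ces2a (5.59 with 1 FPKM added) and 3.86 over kidney for Ces2e, so Ces2e kept a kidney level where Ces2a was listed at 0. Ces1g, whose product limits hepatic lipid secretion in mice, had 31.4 FPKM in liver, 1.18 in kidney, 0.474 in VAT, 0.0283 in BAT, 0.0175 in SCAT and 0.00452 in cortex, and was listed at 0 in muscle. Ces1b was the lowest of the liver-enriched genes, with 5.96 FPKM in liver, 0.175 in VAT, 0.0871 in BAT, 0.0214 in SCAT and 0.0107 in kidney, and was listed at 0 in muscle and cortex. The margin was 4.62 for Ces1g over kidney and 4.46 for Ces1b over VAT, and 3.89 and 2.57 when 1 FPKM was added in place of 0.1. The closest relatives in coding sequence, Ces1b and Ces1c, thus both had their highest level in liver. The liver FPKM was 5.96 for Ces1b and 804.8 for Ces1c. In Ces1b, 1.37% of the coding windows of read length recurred in another carboxylesterase transcript, most of all that of Ces1c. How much of the Ces1b level, and so of its enrichment call, comes from Ces1c reads was not tested.

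Kidney differed from liver in which members it held. Of the 10 genes, 6 were at least 4-fold higher in liver than in kidney, beside 8.19% of the 11940 protein-coding genes that reached 1 FPKM in either. These were the same 6 as the liver-enriched genes. In the other direction there was 1, beside 10.2%. The median log2 difference (liver minus kidney) was 4.24 over the members (3.18 with 1 FPKM added) and 0.03 over all of those genes. Single differences ran from 11.41 for Ces1c and 11.08 for Ces3a (9.40 and 9.16 with 1 FPKM added) to -4.70 for Ces2c.

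**Figure D2:**
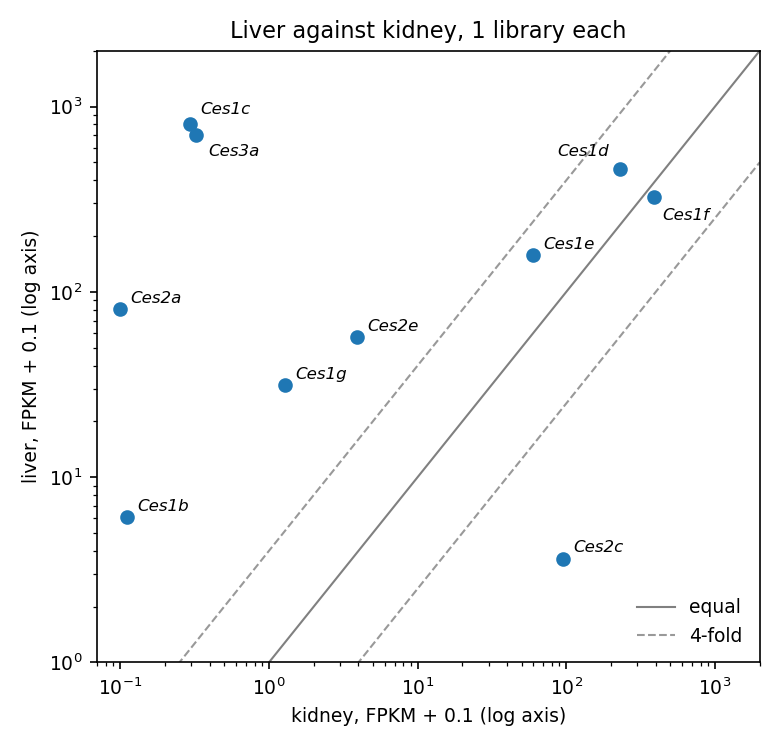
Liver FPKM (vertical) against kidney FPKM (horizontal) of the 10 genes, each plus 0.1 on log axes, with lines for equality and for a 4-fold difference. Ces1d, Ces1e and Ces1f lie between the dashed lines, Ces2c lies below them, and the other 6 lie above.

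Ces2c, an acylglycerol hydrolase, was the kidney-enriched member, with 94.5 FPKM in kidney, 3.53 in liver, 0.406 in VAT, 0.324 in muscle, 0.128 in SCAT, 0.0754 in BAT and 0.0244 in cortex. Kidney lay above liver by 4.70 on the log2 scale. The value belongs to 1 merged locus (chr8:104831572-104902787) that carries the names Ces2b and Ces2c and also spans the pseudogenes Ces2d-ps, Gm8798 and Matr3-ps2, so the shares of Ces2b and Ces2c in it cannot be told apart. Ces2a and Ces2c were 83.0% identical in coding sequence but had an r of 0.227 over the 7 tissues, the lowest within a subfamily.

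Ces1f and Ces1e were present in both organs. Ces1f, linked to triacylglycerol hydrolysis, had 387.3 FPKM in kidney (rank 59 among protein-coding genes), 324.6 in liver, 34.1 in SCAT, 28.7 in VAT, 22.0 in BAT, 1.03 in muscle and 0.127 in cortex. Kidney and liver differed by 0.25 on the log2 scale, and SCAT, the highest of the fat depots, lay 3.25 below liver (2.64 after scaling the libraries by median ratios). Ces1f made up 49.9% of the summed FPKM of the 10 genes in kidney and 12.3% in liver. Ces1e, also called egasyn, which holds beta-glucuronidase in the endoplasmic reticulum, had 157.8 FPKM in liver, 59.3 in kidney, 5.86 in VAT, 0.377 in BAT, 0.317 in muscle and 0.0491 in SCAT, and was listed at 0 in cortex. Liver was above kidney by 1.41. Ces1e has 3 loci in the table, and the highest, used here, lies on the plus strand as read from the order of loci, opposite to the annotated gene. The locus on the annotated strand had 70.5 FPKM in liver, 24.5 in kidney and 2.37 in VAT, so the order of these 3 tissues was the same at a lower level.

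In fat, the highest member was Ces1d, also known as triacylglycerol hydrolase, an enzyme that releases fatty acids in adipocytes and takes part in lipoprotein assembly in liver. Ces1d had 837.8 FPKM in BAT, 462.6 in liver, 340.4 in VAT, 229.3 in kidney, 191.3 in SCAT, 40.3 in muscle and 0.619 in cortex. It was the member with the highest level outside liver, and ranked 41 among protein-coding genes in VAT, 42 in BAT and 92 in SCAT, against 108 in liver and 151 in kidney. BAT exceeded liver 1.81-fold (log2 0.86), VAT 2.46-fold (1.30) and SCAT 4.38-fold (2.13). After scaling the libraries by median ratios, which shifted BAT by -0.29, VAT by 0.42 and SCAT by 0.52, the difference between BAT and SCAT was 1.32, under 4-fold, and that between BAT and VAT was 0.58. The same scaling took the difference of liver minus VAT from 0.44 to -0.07, so the order of these 2 tissues was not settled. Ces1d was thus the single member that was not at least 4-fold lower in each fat depot than in liver.

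Against each fat depot, 9 of 10 genes were at least 4-fold higher in liver, all but Ces1d in every case. Over VAT the count was 8 with 1 FPKM added, since the difference of the Ces2b and Ces2c locus fell from 2.84 to 1.69. The background was 13.0% of protein-coding genes for liver over VAT, 16.9% over SCAT and 10.9% over BAT. Median log2 differences of the members were 5.14 over VAT, 7.19 over SCAT and 8.15 over BAT, beside 0.47, 0.51 and -0.20 over all genes with at least 1 FPKM in either tissue. The members' medians rest on low fat values and so on the added constant. With 1 FPKM in place of 0.1 they were 4.49, 5.08 and 5.42. Ces1d made up 87.6% of the summed FPKM of the 10 genes in VAT, 84.5% in SCAT, 97.4% in BAT, 95.0% in muscle and 67.5% in cortex, but 17.6% in liver and 29.6% in kidney. With the other carboxylesterase genes of the table in the sum (18 loci, the highest of each gene), its share was 61.8% in VAT, where Ces5a was at 160 FPKM, 84.1% in SCAT and 97.3% in BAT. Elsewhere this share was 91.3% in muscle, 46.0% in cortex, 16.7% in liver and 29.5% in kidney. Among the 10 genes in liver, Ces1c (30.6%) and Ces3a (26.7%) held the larger shares. The summed FPKM of the 10 genes was 2629 in liver, 861 in BAT, 776 in kidney, 389 in VAT, 226 in SCAT, 42.4 in muscle and 0.917 in cortex.

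**Figure D3:**
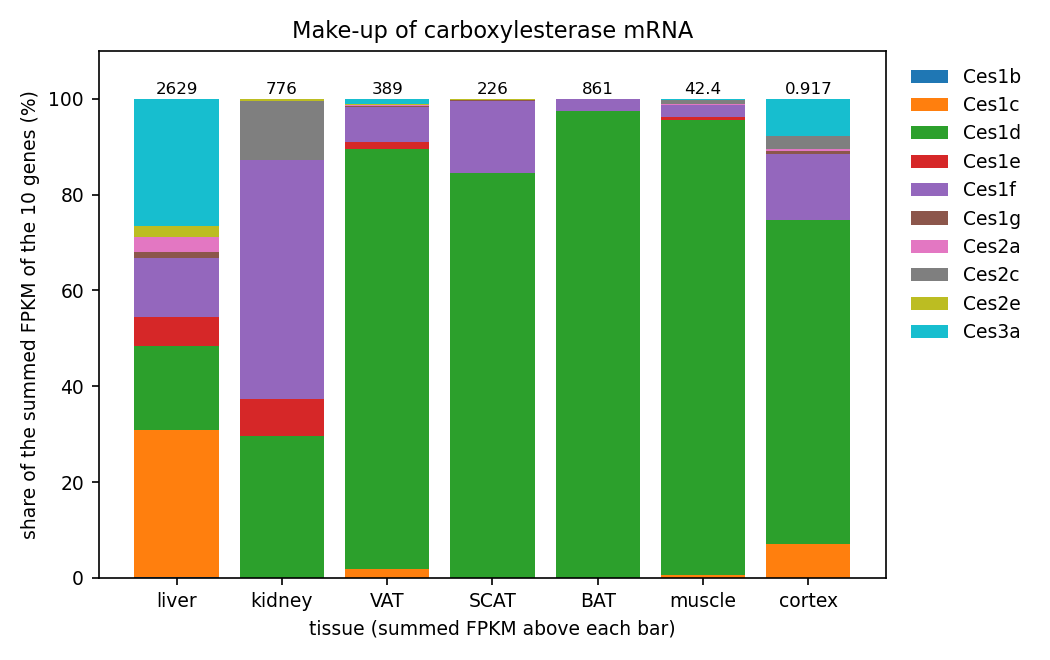
Share of each gene (colours) in the summed FPKM of the 10 carboxylesterase genes, as percentages, with the sum above each bar. Ces1d fills 84.5 to 97.4% of the bars of the fat depots and 95.0% of that of muscle, while 5 genes hold more than 5% each in liver (Ces1c, Ces3a, Ces1d, Ces1f and Ces1e).

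VAT had low levels of several liver-enriched members that were lower again in SCAT and BAT. Ces1c and Ces3a were at least 4-fold higher in VAT than in kidney, SCAT and BAT. As a percentage of the liver level, VAT had 0.569% for Ces3a, 0.858% for Ces1c, 0.859% for Ces2a, 1.51% for Ces1g, 1.97% for Ces2e and 2.94% for Ces1b. The 9 hepatocyte markers with a liver value stood at 0.544 to 2.29% in VAT (median 0.684%), so 5 of the 6 liver-enriched carboxylesterases fell within the range of those markers and Ces1b lay above it. The upper end is set by Tat alone. Without it the range was 0.544 to 0.874%, which held 3 of the 6 (Ces1c, Ces2a and Ces3a), with Ces1b, Ces1g and Ces2e above. In SCAT and BAT the hepatocyte markers had medians of 0.0124% and 0.00504%. The part of hepatocyte RNA in the VAT values was not tested. Ces1e (3.71%), Ces1f (8.84%), the Ces2b and Ces2c locus (11.5%) and Ces1d (73.6%) lay above the range of the hepatocyte markers in VAT.

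**Figure D4:**
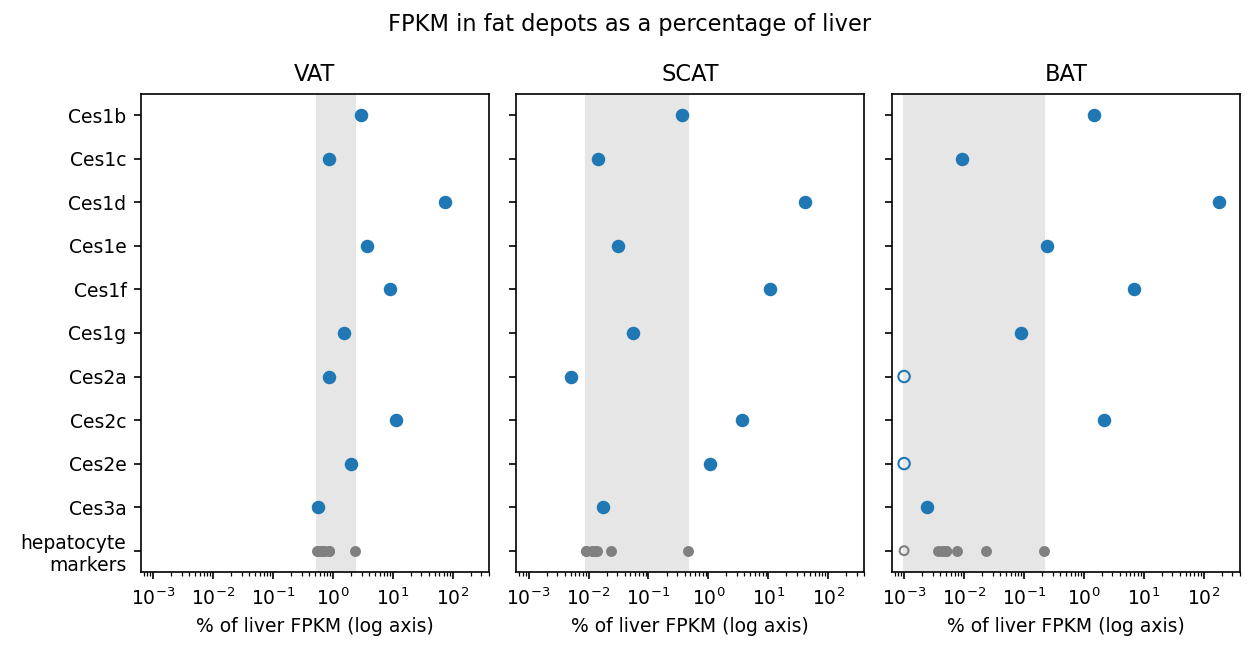
FPKM in VAT, SCAT and BAT as a percentage of the liver FPKM (log axes) for the 10 genes in blue and 9 hepatocyte markers in grey, whose range is shaded. Open circles at the left edge are genes listed at 0, and Ces1d lies to the right of the shaded range in all 3 panels, at 41.3 to 181%.

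Adipocyte markers gave the matching view for Ces1d and Ces1f outside fat. In kidney, 6 adipocyte markers stood at 0.145 to 8.42% of their VAT level (median 0.965%), while Ces1d stood at 67.3% and Ces1f at 1350%. In liver the markers stood at 0.0131 to 4.68% and Ces1d at 136%. On this scale Ces1d in liver and kidney lay above each of the 6 adipocyte markers. In muscle the markers stood at 4.20 to 18.4% of VAT (median 7.16%), and Ces1d with 11.8% fell inside that range while Ces1f with 3.61% fell below it. Against BAT the markers stood at 1.79 to 181% (median 4.82%), with the upper end set by Lep alone. Both Ces1d (4.81%) and Ces1f (4.69%) fell inside. The part of adipocytes in the muscle library in these values was not tested.

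Similarity of coding sequence and similarity of tissue pattern were set side by side for the 45 pairs. Pearson r over the 7 libraries had a median of 0.717 (0.368 to 0.961) for the 15 Ces1 pairs, 0.672 (0.227 to 0.803) for the 3 Ces2 pairs and 0.800 (0.219 to 0.997) for the 27 pairs from different subfamilies. Ces1d and Ces1f, the pair present in all 3 fat depots, had an r of 0.821, whereas Ces1c and Ces1d, from the same cluster, had 0.368. All pairs share the same 7 libraries, and these values describe them without a test. How far reads from shared stretches enter the r of Ces1b and Ces1c was not tested.

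**Figure D5:**
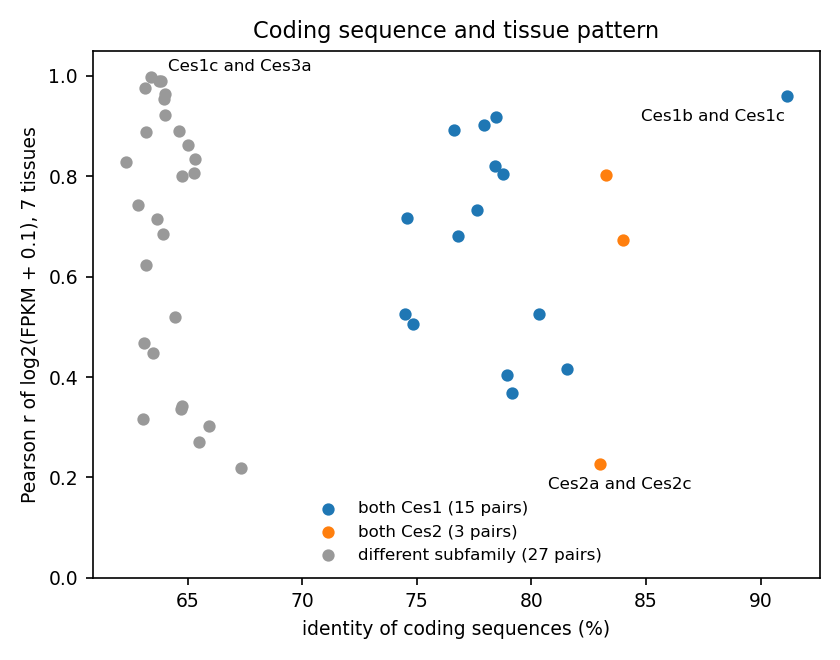
Pearson r of log2(FPKM + 0.1) over 7 tissues (vertical) against the identity of coding sequences in percent (horizontal) for 45 pairs of genes, coloured by subfamily. Pairs from different subfamilies span 0.219 to 0.997, and the closest pair, Ces1b and Ces1c at 91.1% identity, has an r of 0.961.

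For each member, the protein-coding gene with the most similar pattern was sought among 8033 genes with at least 10 FPKM in any tissue. Given here for 9 of the members, these were Mup3 for Ces1c (r = 1.00), Cyp2c67 for Ces2a (1.00), Fgb for Ces3a (0.999), Ugt2b34 for Ces1g (0.997), Clec4f for Ces1b (0.996), Dcxr for Ces1e (0.994), Shc1 for Ces1d (0.994), Cda for Ces2c (0.989) and Tram1 for Ces1f (0.988). With 7 points, many genes came close. An r above 0.95 was reached by 144 genes for Ces3a and by 15 for Ces1f.

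Of 10 further carboxylesterase names, 9 were in the table and 6 reached 1 FPKM. Ces3b (127 FPKM), Ces2g (5.79) and Ces4a (1.14) were enriched in liver, and Ces2h (1.34) and Ces2b, which shares its locus with Ces2c, in kidney. The loci of Ces4a and Ces2h lie opposite to the annotated strand, and those on the annotated strand had 0.584 FPKM (Ces4a, liver) and 0.426 FPKM (Ces2h, kidney), too low for a call. Ces5a, a carboxylesterase of the epididymis, had 160 FPKM in VAT and 1.41 in muscle, the next tissue, beside the epididymis markers in the same library. Ces1a, Ces1h and Ces2f stayed below 0.14 FPKM in all 7 libraries. Neighbouring copies could have very different levels, as Ces2e had 57.0 FPKM in liver and Ces2f, the next gene of the cluster, 0.0112.

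Of 13 other esterases and amidases, 2 were enriched in liver, namely the paraoxonase Pon1 (584 FPKM) and the microsomal epoxide hydrolase Ephx1 (106 FPKM). The arylacetamide deacetylase Aadac had 152 FPKM in liver and 39.3 in kidney, an order like that of Ces1e. Pon3 had 80.5 FPKM in BAT, 48.2 in liver, 37.2 in VAT and 18.4 in SCAT, with 25.3 in muscle and 4.15 in kidney. Of 12 neutral lipid hydrolases, 1 was enriched in liver (hepatic lipase, Lipc, 110 FPKM), 1 in SCAT (Cel, a pancreatic enzyme, 9.41 FPKM) and 1 in BAT (Pnpla3, 9.99 FPKM). The adipocyte lipases Pnpla2 (ATGL) and Lipe (HSL) had 272 and 249 FPKM in BAT, 104 and 84.3 in VAT, 68.4 and 56.6 in SCAT, and 17.7 and 3.95 in liver. Ces1d followed the same order over the depots and had a higher FPKM than both in each depot and in liver.

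Of 7 genes of VLDL assembly, 2 were enriched in liver, the transfer protein Mttp (127 FPKM) and Tm6sf2 (13.2 FPKM), and Apob has no usable liver value. Among 12 transcriptional regulators linked to these genes, the xenobiotic receptors Nr1i2 (PXR, 11.9 FPKM) and Nr1i3 (CAR, 136 FPKM) were enriched in liver. Hnf4a, a regulator of hepatocyte and tubule genes, had 207 FPKM in liver and 159 in kidney, and at most 2.42 in the fat depots. Pparg, the adipocyte regulator, had 158 FPKM in BAT, 49.8 in VAT and 41.4 in SCAT, against 9.69 in liver, and Ppara had 73.9 in liver and 45.6 in BAT. These are levels side by side, and no link between a regulator and a carboxylesterase was tested.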

How the data were processed

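Per the labels and the methods, total RNA from 7 mouse tissues was depleted of rRNA, prepared with a directional kit and sequenced as paired reads of 101 bases. The authors trimmed adapters with flexbar, removed rRNA reads with Bowtie2 (2.2.9), aligned to GRCm38 with STAR (2.6.0c) and ran cufflinks, cuffmerge and cuffdiff (Cufflinks 2.2.1, as in the submitters' processing notes). The library type and the scaling between libraries are not given in the sources used here. The authors deposited FPKM for 94339 loci in 21 pairwise comparisons. Their log2 fold changes, test statistics, p-values and q-values stand in the same table and were not used.

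Gene names were split on commas, the 151 loci with status FAIL were dropped (0 of them of the 10 genes), and zeros with status LOWDATA (83 loci) were taken as missing. A gene with a missing value received no call. Where a name had several loci, the one with the highest maximum FPKM was used. Strand was read from the order of loci, and 75.3% of 62000 pairs of locus and name lay on the annotated strand (GENCODE vM21, which held 91.9% of the names). Levels were compared as log2(FPKM + 0.1), which understates differences of low genes. Called meant at least 1 FPKM in the higher tissue and a log2 difference of at least 2 (4-fold), and enriched meant this against each other tissue. With 1 library per tissue there were no tests and no intervals, and the unknown depth leaves the precision unknown. The rule was tested on simulated data. Alternatives covered pseudocount, minimum, fold, scaling, choice of loci, missing values and left-out libraries. The hepatocyte marker range without Tat and the share of Ces1d among 18 carboxylesterase loci were added after seeing the data.

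Named were all 10 members, the genes of 5 lists, 13 marker lists and, for each member, the protein-coding gene most like it. The gene most like Ces2e is not reported here. The members and lists were chosen with earlier results of these data known. Ranks are among 21340 protein-coding names. Promoter sequences are RefSeq's, and 7 of the 10 genes matched (none for Ces1d, Ces1f or Ces3a). Python 3.11.15, pandas 2.3.3, NumPy 2.4.6, Biopython 1.88 and matplotlib 3.10.9 were used.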

Additional observations from a re-analysis of the deposited data

Results flagged for a closer look

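The table holds further loci under the names of 5 of the 10 genes that the comparisons did not use, each above 1 FPKM. Ces1e has 1 on the annotated strand (70.5 FPKM in liver) and 1 more on the opposite strand (20.2 FPKM in liver). Opposite to the annotated gene, loci of Ces1d had 31.3 FPKM in BAT, Ces2e 23.1 FPKM in liver, Ces1f 22.2 FPKM in liver and Ces2a 13.4 FPKM in liver. Relative to the annotated strand in the same tissue, where that strand reached 1 FPKM, these were 2.95 to 6.43% for Ces1d, 4.53 to 6.83% for Ces1f, 16.6% for Ces2a and 40.5 to 71.5% for Ces2e. Whether they are antisense transcripts or reads assigned to the other strand was not tested.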

How the results depend on the processing

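Of 104 recomputed counts of called genes, 100 stayed within 1.5 times the count reported and 88 equalled it. Without loci that carry several names, the kidney-enriched count and the count higher in kidney than in liver were both 0, since the locus of Ces2b and Ces2c drops out. Without the kidney library, 9 members were enriched in liver, all but Ces1d. Without the liver library, 3 members were enriched in kidney (Ces1e, Ces1f and Ces2c) and 2 in a fat depot (Ces1c and Ces3a, both in VAT). Leaving out a library loosens the rule for every gene, and the share over all protein-coding genes was not computed for these settings. Of 553 recomputed log2 differences of single members, 467 moved by less than 1.5-fold, 86 moved by more and 0 turned a called direction. Keeping FAIL loci, taking LOWDATA zeros as 0 and leaving out loci with several names could not move any of them, since no recomputed value depends on these settings. Keeping FAIL loci or LOWDATA zeros could not change a count either, so part of the unchanged values was fixed in advance. A pseudocount of 1 accounted for 43 of the 86 and one of 0.01 for 32, and median ratio scaling for 7. The libraries have no replicates, and depth and spread are unknown, so small differences such as that of Ces1f between kidney and liver cannot be judged. No paired analysis was possible because no tissue has a second library.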
